A study of Drosophila melanogaster with 12 samples.

Results

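Gene expression was compared between 2 control groups of fly heads that differ by the target of a hairpin RNA. In NTC IR-2 the hairpin was directed against Luciferase, and in NTC IR-1 against mCherry, neither of which is a fly gene. The members were the 3 libraries of each group, 6 of the 12 libraries of the series, taken by the column names of the deposited count table. All came from heads of Drosophila melanogaster males aged 3 days, and each library held RNA of 50 pooled heads, taken from flies that had been frozen and stored until enough were at hand. In every group of the series, controls included, the nSyb driver made the hairpin in neurons, so no group here is free of driver and hairpin. The strain, the insertion site of each hairpin and the number of crosses behind the replicates are not given in the sources used here. The p-values therefore measure the spread between libraries, which may be in part technical. That spread was estimated from all 12 libraries of the series, not from the 6 members alone. Titles of the NTC IR-2 libraries carry the word young and those of NTC IR-1 do not, although the age label is the same.

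The names of the libraries rest on the count table alone. A second deposited table, of normalized counts, gives other names to the same values: it calls the libraries labelled NTC IR-2 here NTC IR-1, and those labelled NTC IR-1 here dENL/AF9-IR. The NTC IR-2 of that table holds the libraries labelled dYEATS2-IR in the count table. Group names below are those of the count table, and each direction belongs to libraries so labelled. Depth ran from 33094369 to 51881142 total counts among the NTC IR-1 libraries and from 33722953 to 53217847 among those of NTC IR-2. The mitochondrial large ribosomal RNA took 25.1% to 31.7% of counts in NTC IR-1 and 19.4% to 32.3% in NTC IR-2. Replicates of a group differed from each other by more than counting error, with a chi-square per degree of freedom of 44.3 to 184, so no library was a second copy of another. NTC IR-1 replicate 3 stood further from replicates 1 and 2 than these did from each other (146 and 139 against 44.3).

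The fly head is a mixture of organs. Brain and retina supply neurons, photoreceptors and glia, and around them lie the fat body, which stores fuel and secretes blood proteins, and the muscles, blood cells and cuticle of the head capsule. The fat body of adult females secretes yolk proteins, and males make seminal fluid proteins and sperm proteins in the reproductive tract of the abdomen. In RNA from whole heads, fewer cells of a type and less RNA per cell cannot be told apart.

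Of 12661 rows tested, 2467 (19.5%) were called at an adjusted p (FDR) below 0.05 in edgeR's quasi-likelihood test. Of these, 1307 (10.3% of those tested) were higher in NTC IR-2 and 1160 (9.16%) were lower. Large changes were mostly losses: of 711 called rows that changed at least 2-fold, 175 were higher and 536 lower. The 3 NTC IR-2 libraries all lay above the 3 of NTC IR-1 for 16.6% of rows tested and all below for 16.9%. The median log2 fold change of all rows was -0.04. Neurons and synapses stood on the higher side, while the fat body, reproductive tract proteins, several blood cell genes and the cytosolic ribosome stood on the lower side. With only the 6 libraries in the fit 940 rows were called (330 higher and 610 lower), and leaving out 1 library gave 973 (without NTC IR-1 replicate 1) to 2977 (without NTC IR-1 replicate 3).

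**Figure D1:**
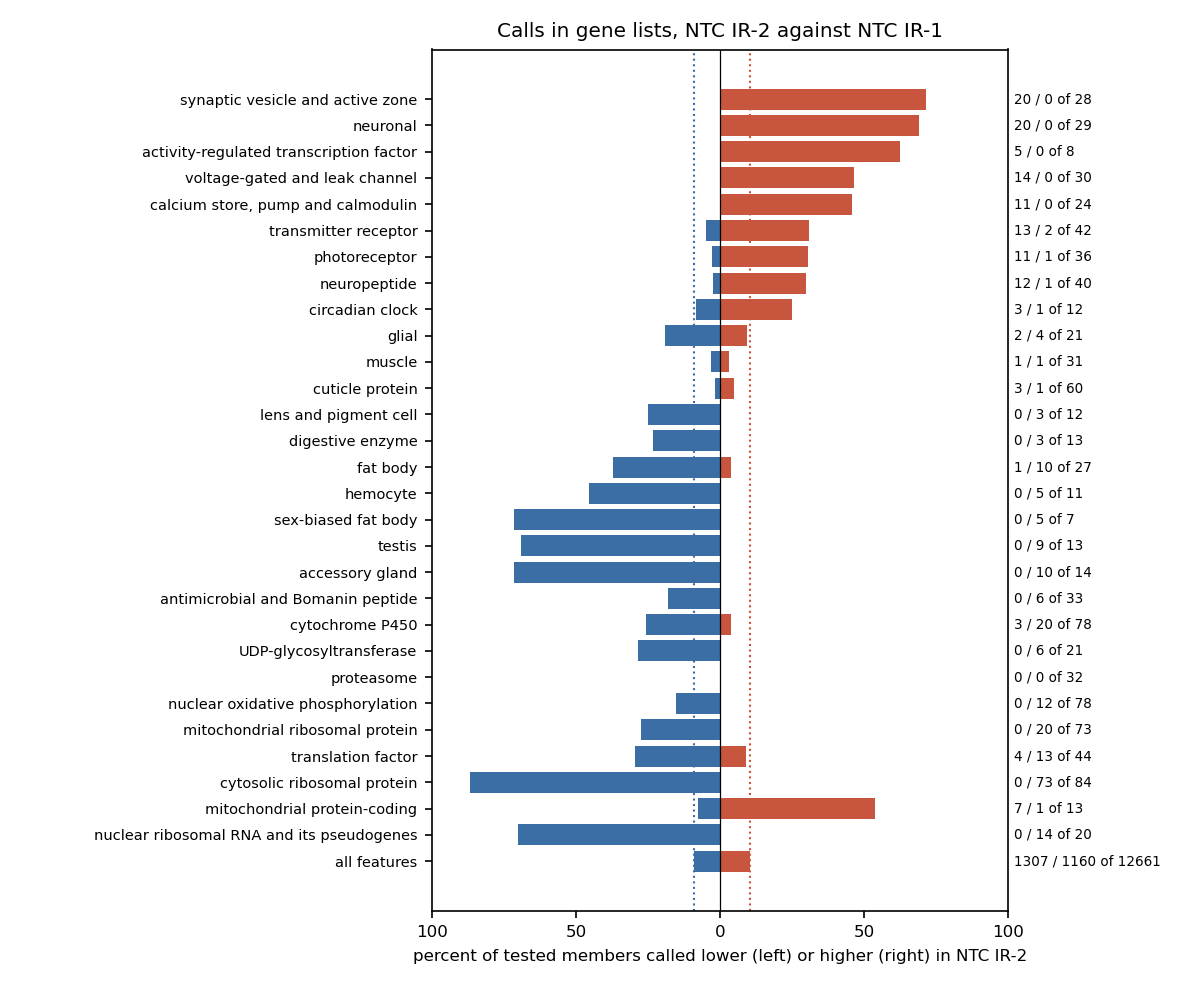
Percent of the tested members of each gene list called lower (blue, left) or higher (red, right) in NTC IR-2, with the counts higher / lower of tested at the right and the percentages over all rows as dotted lines. Of the cytosolic ribosomal protein genes 73 of 84 were called lower, and of the synaptic vesicle and active zone genes 20 of 28 were called higher.

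The calls were ordered by transcript length and also by level. Protein-coding genes were split into 10 equal classes by exon length, the summed length of a gene's merged exons. In class 1, the shortest (162 to 802 bases) 1.34% were called higher and 18.8% lower, with a median log2 fold change of -0.33. In class 10, the longest (5743 to 71820 bases) 38.2% were higher and 1.43% lower, with a median of 0.33. Length and level go together in these data, since the median level rose from 5.27 CPM, counts scaled to library size, in class 1 to 102 in class 10. In 10 equal classes by level, 0.573% were called higher and 8.79% lower in the lowest class (median -0.65). In the highest class by level 40.7% were higher and 9.46% lower (median 0.31). With the length trend removed, as described below, these medians were -0.52 and 0.16. Rows with low counts in NTC IR-2 could pass the filter on low counts through NTC IR-1. The direction in the lowest class may thus be set in part by the filter and is given as a description. A change of a given size is also called more readily at high counts, and the part of this in the order by level was not tested. The order by length was also seen within the third of protein-coding genes that was most abundant, split into 5 classes by length. There 6.73% were higher and 20.9% lower in the shortest class, against 46% higher and 0.86% lower in the longest. Many neuronal genes are long and ribosomal protein genes are short, so for most gene groups below a count is also given from a fit in which the trend of each library with exon length was removed. That fit called 1950 rows, 1043 higher and 907 lower, and 1623 of the 2467 calls were kept with the same sign. Length and cell type cannot be fully told apart by it, because a correction by length also removes part of a real change in long or short genes.

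**Figure D2:**
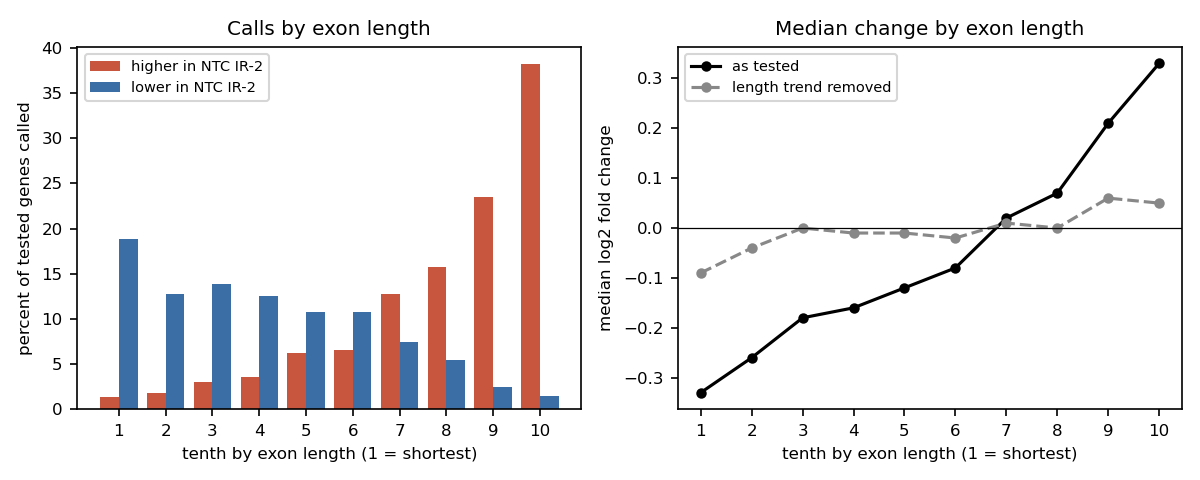
The 10 classes of protein-coding genes by exon length on the horizontal axes, from shortest (1) to longest (10). Left: percent of tested genes called higher (red) or lower (blue) in NTC IR-2, from 1.34% and 18.8% in class 1 to 38.2% and 1.43% in the longest; right: median log2 fold change as tested (black, -0.33 to 0.33) and with the length trend removed (grey, dashed).

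Genes of neurons were higher in NTC IR-2. Of 29 general neuronal genes tested 20 were called higher and 0 lower (median log2 fold change 0.57), against 10.3% of all rows. Their summed level was 10434, 11617 and 12923 CPM in NTC IR-1 and 18040, 20491 and 19383 CPM in NTC IR-2. The nrv3 gene, which encodes a beta subunit of the sodium pump in the nervous system, had 1368, 1578 and 2044 CPM in NTC IR-1 and 3396, 3654 and 3799 in NTC IR-2. It rose by 1.12 on the log2 scale, with an SE of 0.155 and an FDR of 0.0017 in edgeR's test. The fne gene, which encodes an RNA-binding protein of the ELAV family, rose by 1.05 (SE 0.130, FDR 0.00151), from 279, 335 and 331 CPM to 607, 727 and 616. The jeb gene, whose product is the secreted ligand of the receptor Alk, had 146, 157 and 155 CPM in NTC IR-1 and 354, 329.7 and 260.0 in NTC IR-2, a change of 1.04 (FDR 0.00221). For these 3 genes the groups did not overlap. The pan-neuronal marker elav had 228, 249.9 and 218 CPM against 236, 331 and 282, overlapped between groups and was not called (log2 fold change 0.29, FDR 0.134), although it passed without NTC IR-2 replicate 1 (FDR 0.0316). With the length trend removed 12 of the 29 genes were called higher and 0 lower, with a median of 0.38, and the change of elav was -0.04. The count higher was 11 with only the 6 libraries and 11 without NTC IR-1 replicate 1.

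Release of transmitter from vesicles showed the same direction. Of 28 genes of synaptic vesicles and active zones 20 were called higher and 0 lower (median 0.53), and 16 were called higher with the length trend removed. Snap25 is a SNARE protein of the plasma membrane that assembles with vesicle SNAREs, and its gene lies at 3L 24074180 to 24299205 in BDGP6.54. It had 294, 358 and 563 CPM in NTC IR-1 and 966, 976 and 1061 in NTC IR-2 (log2 fold change 1.31, SE 0.206, FDR 0.00303). Complexin (cpx), which clamps assembled SNAREs, rose by 1.31 (SE 0.230, FDR 0.00469), from 1290, 1409 and 2535 CPM to 3569, 4916 and 4539. The vesicle SNARE nSyb, whose promoter gave the driver its name, had 1280, 1316 and 1400 CPM in NTC IR-1 and 2102, 2157 and 1961 in NTC IR-2. Its change of 0.64 (SE 0.0874, FDR 0.0017) was smaller, with no overlap between the groups. The count higher in this list was 9 with only the 6 libraries and 12 without NTC IR-1 replicate 1.

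Excitability and calcium genes followed. Of 30 voltage-gated and leak channels 14 were called higher and 0 lower (median 0.38). Elk, a voltage-gated potassium channel, had 42.2, 44 and 43.7 CPM in NTC IR-1 and 77.5, 93.6 and 70.4 in NTC IR-2 (log2 fold change 0.89, SE 0.119, FDR 0.00168). The channel count was the most dependent on the fit among the neuronal lists: 6 with the length trend removed, 2 with only the 6 libraries, 4 without NTC IR-1 replicate 1, 4 without replicate 2, and 22, 5 and 8 without NTC IR-2 replicates 1, 2 and 3. Of 24 genes of calcium stores, pumps and calmodulin 11 were called higher and 0 lower (median 0.32), and 8 with the length trend removed. CaMKII, the calcium/calmodulin-dependent kinase of synapses, had 399, 439 and 642 CPM in NTC IR-1 and 1059, 1198 and 1272 in NTC IR-2 (log2 fold change 1.25, SE 0.173, FDR 0.0017). Calmodulin (Cam) itself rose by 0.71 (SE 0.107, FDR 0.00248), with 3104, 3333 and 3470 CPM against 4825, 5660 and 5734. The calcium count was 3 with only the 6 libraries, 4 without NTC IR-1 replicate 1 and 6 without replicate 2.

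Receptors and peptides were less uniform. Of 42 transmitter receptors 13 were called higher and 2 lower (median 0.27), the 2 being the nicotinic subunits nAChRbeta2 and nAChRbeta3. Rdl, the GABA-gated chloride channel, had 382, 429 and 464 CPM in NTC IR-1 and 629, 907 and 828 in NTC IR-2 (log2 fold change 0.89, SE 0.17, FDR 0.00646). The nicotinic subunit nAChRalpha5 rose by 0.92 (SE 0.163, FDR 0.00499). With the length trend removed 8 receptors were higher and 1 lower, with a median of 0.06. Neuropeptide precursors are short genes, with a median exon length of 811 bases, and here the correction worked the other way. Of 40 precursors 12 were called higher and 1 lower as tested (median 0.20), and 14 and 1 with the trend removed (median 0.38). Proctolin (Proc) rose by 1.08 (SE 0.157, FDR 0.00221), with 103, 113 and 82.6 CPM in NTC IR-1 and 254, 209 and 171 in NTC IR-2. Diuretic hormone 44 (Dh44), a relative of vertebrate corticotropin-releasing factor, rose by 0.81 (FDR 0.00547), and the short neuropeptide F precursor sNPF by 0.73 (FDR 0.00368). Nplp2, the 1 precursor called lower, had 216, 185 and 465 CPM in NTC IR-1 and 34.8, 67.5 and 67.5 in NTC IR-2 (log2 fold change -2.35, SE 0.502, FDR 0.00996). The higher counts of receptors and precursors were 6 and 5 without NTC IR-1 replicate 1, 7 and 6 without replicate 2, 7 and 6 without NTC IR-2 replicate 2, and 6 and 5 with only the 6 libraries. Without NTC IR-2 replicate 3 there were 8 receptors.

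Among 8 transcription factors known to follow neuronal activity 5 were called higher and 0 lower, with 3 higher when the length trend was removed, 2 when NTC IR-1 replicate 1 was left out and 3 when replicate 2 of either group was. Hr38, a nuclear receptor used as a marker of recently active neurons, lies at 2L 20683462 to 20714588 in BDGP6.54. It had 27.8, 28.2 and 19.9 CPM in NTC IR-1 and 126, 423 and 53.7 in NTC IR-2 (log2 fold change 2.99, SE 0.587, FDR 0.00731). The groups did not overlap, and the NTC IR-2 libraries themselves spread widely, with replicate 2 highest. Stripe (sr), the fly member of the EGR family, had 18.8, 18.6 and 25.2 CPM against 48.6, 108 and 28.3 and again had replicate 2 highest and replicate 3 lowest within NTC IR-2 (log2 fold change 1.56, SE 0.394, FDR 0.0197). The call of sr was lost with only the 6 libraries (FDR 0.0787) and without NTC IR-1 replicate 1 (0.0834), NTC IR-1 replicate 2 (0.0753) or NTC IR-2 replicate 2 (0.0624). NTC IR-2 replicate 2 was also the library with the highest level of the heat shock genes described below, and the part of this in the level of Hr38 and sr was not tested. Hr38 remained called without that library, since its FDR was at most 0.0356 in the 6 fits that each left out 1 library.

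**Figure D3:**
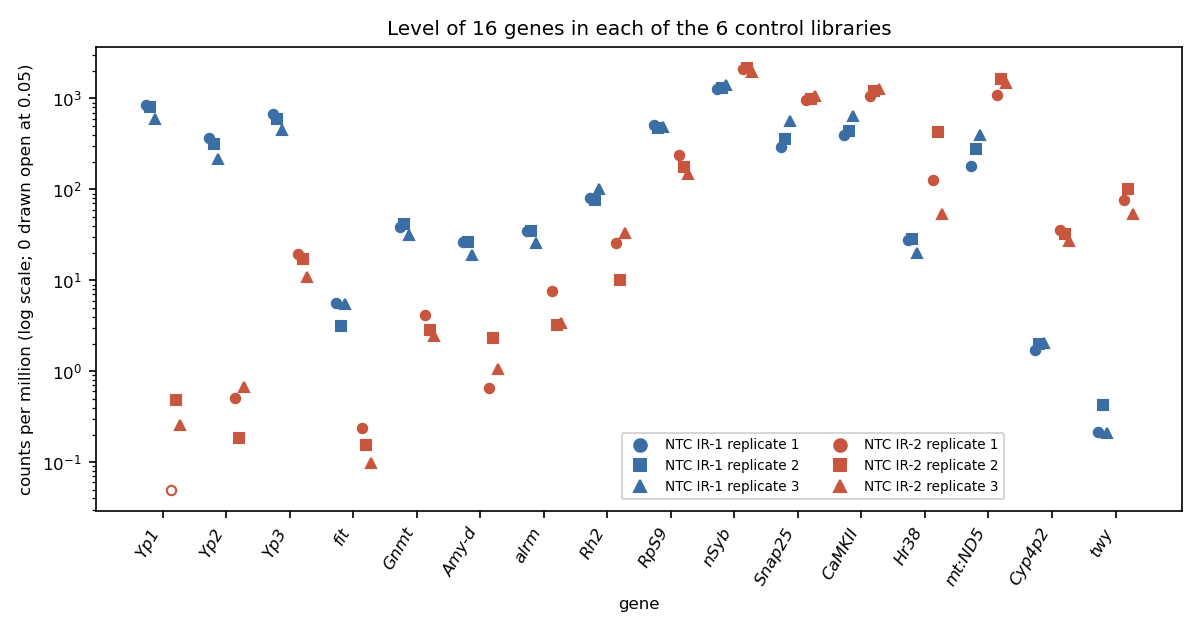
CPM of 16 genes (log scale) in each library of NTC IR-1 (blue) and NTC IR-2 (red), with replicates 1, 2 and 3 as circles, squares and triangles, and a level of 0 drawn open at 0.05. For each gene the 3 libraries of one group lie apart from the 3 of the other: Yp1 at 587 to 843 in NTC IR-1 and at most 0.488 in NTC IR-2, and twy at no more than 0.425 in NTC IR-1, against 53.6 to 102 in NTC IR-2.

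The eye gave a mixed picture. Of 36 photoreceptor genes 11 were called higher and 1 lower (median 0.31). The called genes included enzymes that act behind the rhodopsins. The diacylglycerol kinase rdgA had 787, 834 and 1106 CPM in NTC IR-1 and 1650, 1868 and 1733 in NTC IR-2 (log2 fold change 0.95, SE 0.130, FDR 0.0017). The phospholipase C norpA rose by 0.82 (SE 0.163, FDR 0.00758) and lost its call with only the 6 libraries (FDR 0.0673). Rh2, the rhodopsin of the ocelli, the simple eyes on top of the head, was the gene called lower. It had 81.1, 76.5 and 102 CPM in NTC IR-1 and 25.8, 10.1 and 33.2 in NTC IR-2 (log2 fold change -1.91, SE 0.381, FDR 0.00769). The main rhodopsin of the compound eye, ninaE, had 13556, 12960 and 23657 CPM in NTC IR-1 and 27238, 22922 and 17012 in NTC IR-2. Its groups overlapped and it was not called (0.42, FDR 0.259), although it passed without NTC IR-1 replicate 3 (FDR 0.0264). With the length trend removed 6 photoreceptor genes were higher, with only the 6 libraries 3, without NTC IR-1 replicate 1 or 2 there were 4, without NTC IR-1 replicate 3 there were 18, and without NTC IR-2 replicate 2 there were 7. Of 12 genes of the lens and pigment cells 0 were higher and 3 lower (Hn, retinin and st), with 1 lower without NTC IR-1 replicate 1 or NTC IR-2 replicate 2 and 5 without NTC IR-2 replicate 1. The count was 2 with the length trend removed. Henna (Hn), the phenylalanine hydroxylase that also serves eye pigments, fell from 74.2, 79.1 and 95.6 CPM to 55, 51.1 and 52.1 (-0.66, SE 0.147, FDR 0.0124). The corneal lens protein retinin, at 1484, 1391 and 1163 against 989, 532 and 492 CPM, changed by -1.0 (FDR 0.0132). Leaving out NTC IR-1 replicate 1 ended its call (FDR 0.0513), as did leaving out NTC IR-2 replicate 2 (0.0545) and with only the 6 libraries (0.0624).

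Glia did not move as a group. Of 21 glial genes 2 were called higher and 4 lower, with a median of 0.12, and the pan-glial factor repo, at 29.7, 26.8 and 32.8 CPM against 33, 22.8 and 23.4, was not called (-0.17, FDR 0.404; FDR 0.0377 without NTC IR-2 replicate 1). The 4 lower genes included alrm and Gat, both used as markers of astrocyte-like glia. Of the 21 genes 13 had a positive log2 fold change and 8 a negative one, and alrm and Gat alone do not stand for that cell type. The leucine-rich repeat gene alrm had 34.9, 35 and 25.9 CPM in NTC IR-1 and 7.58, 3.26 and 3.44 in NTC IR-2 (log2 fold change -2.76, SE 0.302, FDR 0.000903). The GABA transporter Gat fell from 68.2, 76.5 and 86.5 CPM to 46.4, 29.3 and 35.4 (-1.06, SE 0.164, FDR 0.00287). The amino acid transporter Eaat2 was higher instead, with 280.5, 276 and 373 CPM against 523, 669 and 497 (0.86, SE 0.14, FDR 0.00352). These 3 genes did not overlap between groups. The lower call of alrm and Gat was also made with the length trend removed (FDR 0.000637 and 0.00386). Without NTC IR-1 replicate 3 the glial count was 7 higher and 3 lower, 4 were higher when NTC IR-2 replicate 1 was left out, and 2 were lower when NTC IR-1 replicate 1 or 2 or NTC IR-2 replicate 2 was. Muscle genes were close to the background of all rows in their median, 0.02 over 31 genes with 1 called higher (bt) and 1 lower (TpnC4), and 0 of either with the length trend removed, and the myosin heavy chain Mhc changed by -0.03 (FDR 0.942). Without NTC IR-1 replicate 3 there were 6 muscle genes higher and without NTC IR-2 replicate 3 there were 4 lower. Of 60 cuticle protein genes 3 were higher and 1 lower, and without 1 library 1 to 6 were higher.

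The fat body was lower in NTC IR-2. Of 27 general fat body genes 10 were called lower, against 9.16% of all rows, and 1, AcCoAS, higher (median -0.82). Their summed level was 3358, 3365 and 4957 CPM in NTC IR-1 and 2559, 2668 and 2502 in NTC IR-2. Gnmt, the glycine N-methyltransferase that consumes S-adenosylmethionine in the fat body, had 38.7, 41.4 and 31.9 CPM in NTC IR-1 and 4.19, 2.84 and 2.47 in NTC IR-2. Its log2 fold change was -3.57 (SE 0.615, FDR 0.00437). Tps1, which makes trehalose, the sugar of insect blood, fell from 183, 179 and 235 CPM to 61.1, 56.1 and 32.6 (-2.0, SE 0.430, FDR 0.0103). The storage protein Lsp2 had 151, 149 and 747 CPM against 21.2, 64.2 and 81.7 (-2.65, FDR 0.0364), and the lipoprotein apolpp 518, 555 and 1176 against 276, 347 and 281 (-1.32, FDR 0.0416). NTC IR-1 replicate 3 held the highest value of both, and their calls did not last. That of apolpp was lost in each of the 6 fits without 1 library (FDR 0.0592, 0.0595 and 0.128 without NTC IR-1 replicates 1, 2 and 3, and 0.0861, 0.0874 and 0.103 without those of NTC IR-2). That of Lsp2 was lost without NTC IR-1 replicate 1 (0.0508) or 3 (0.134), or without NTC IR-2 replicate 1 (0.0812), 2 (0.0958) or 3 (0.0584). With the length trend removed 11 of the 25 genes in that fit were lower and 1 higher, with a median of -1.0. The list had 7 lower with only the 6 libraries, 6 when NTC IR-1 replicate 1 was left out, and 6 when NTC IR-2 replicate 2 was.

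Yolk protein genes were among the largest falls. Of 7 fat body genes with a sex bias 5 were called lower and 0 higher, and 4 and 0 with the length trend removed. Yp1, Yp2 and Yp3 encode the yolk proteins, which females secrete into the blood for their eggs. Yp1 had 843, 798 and 587 CPM in NTC IR-1 and 0, 0.488 and 0.257 in NTC IR-2. Yp2 had 366, 318 and 216 CPM against 0.515, 0.183 and 0.672. Yp3 had 674, 593 and 451 CPM against 19.6, 17.2 and 10.9 (log2 fold change -5.17, SE 0.288, FDR 3.37e-06). The libraries labelled NTC IR-1 were the only 3 of the 12 with such levels, since the 6 knockdown libraries held at most 0.293 CPM of Yp1 and 1.12 of Yp2. The female-biased fat body gene fit had 5.65, 3.15 and 5.55 CPM in NTC IR-1 and 0.24, 0.153 and 0.0989 in NTC IR-2 (-4.90, SE 0.882, FDR 0.00515). Genes with a male bias did not go the other way. Takeout (to), made in the male fat body, had 6.58, 6.13 and 13.3 CPM against 2.5, 2.87 and 5.89 (-1.20, FDR 0.0435). Obp99b had 158, 126 and 41.7 CPM against 7.62, 14.4 and 63.7 and was not called (-1.92, FDR 0.0725), although it was called lower without replicate 3 of either group (lowest FDR 0.00839). The call of to was lost in 5 of the 6 fits without 1 library, with FDR of 0.0696, 0.052 and 0.136 without NTC IR-1 replicates 1, 2 and 3 and of 0.104 and 0.145 without NTC IR-2 replicates 1 and 2.

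Other markers of sex stand beside these values. The male-specific RNA roX1 (lncRNA:roX1), part of the complex that doubles transcription of the male X chromosome, was present in every library, at 672, 767 and 1541 CPM in NTC IR-1 and 1660, 1914 and 1485 in NTC IR-2. It was not called (0.76, FDR 0.0531), and it was called higher without NTC IR-1 replicate 3 (1.23, FDR 0.000515). Its partner roX2 (lncRNA:roX2) had 52.6, 56.8 and 85.4 CPM against 111, 92.9 and 85.9 (0.57, FDR 0.0355). The call of roX2 was lost without NTC IR-1 replicate 1 (0.164) or 2 (0.156), without NTC IR-2 replicate 1 (0.0851) or 2 (0.0726) and with only the 6 libraries (0.155). Of 6 ovary and eggshell genes that passed the filter on low counts, of 19 listed, 0 were called in edgeR's test (1 at an unadjusted p below 0.05, and 1 called lower in DESeq2), and their summed level was 14.3, 11.1 and 8.3 CPM against 6.66, 9.64 and 5.89. All 6 libraries carry the label male. Whether any female tissue took part in the yolk protein levels was not tested.

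Transcripts of the male reproductive tract were also lower in NTC IR-2, with the accessory gland genes close to absent there. Of 14 accessory gland genes, which encode seminal fluid proteins, 10 were called lower and 0 higher, and of 13 testis genes (17 listed) 9 were lower and 0 higher, or 9 and 7 lower with the length trend removed. Genes this low in NTC IR-2 could pass the filter on low counts through NTC IR-1, so the direction of these 2 counts may be set by the filter and is given as a description. Their levels were low in every library: summed, the accessory gland genes had 9.16, 6.76 and 19.7 CPM in NTC IR-1 and 2.09, 0.305 and 0.158 in NTC IR-2. The testis genes had 10.7, 11 and 17.8 CPM against 5.11, 2.01 and 1.88. Sfp60F, a seminal fluid protein, had 1.97, 1.43 and 2.22 CPM in NTC IR-1 and 0 counts in NTC IR-2, at least 22.2-fold lower by the level that 3 counts per library allow (FDR 0.00287). EbpII, a protein of the ejaculatory bulb, was at least 14.4-fold lower (FDR 0.00648) and S-Lap2, a leucyl aminopeptidase of sperm, at least 13.5-fold lower (FDR 0.00356). The uncharacterized CG42481 was at least 25.9-fold lower (FDR 0.00168). Mst84Da, a sperm protein, had 1.01, 1.64 and 2.45 CPM against 0, 0 and 0.0396 (FDR 0.00339). Mst57Db, an accessory gland protein, had 3.33, 1.94 and 5.97 CPM against 0.206, 0 and 0 (FDR 0.00395). With only the 6 libraries 6 accessory gland and 6 testis genes were lower, and without NTC IR-2 replicate 2 there were 6 and 4. Without NTC IR-1 replicate 2 the testis count was 4 and without replicate 1 it was 5.

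Several genes of blood cells and some immune peptides were lower in NTC IR-2. Of 11 hemocyte genes 5 were called lower (NimC1, NimC4, Ppn, Sr-CI and srp) and 0 higher, with a median of -1.18, and 7 with the length trend removed. NimC4, a receptor for the uptake of dying cells, had 6.63, 5.94 and 1.66 CPM in NTC IR-1 and 0.309, 0.793 and 0.692 in NTC IR-2 (log2 fold change -2.96, SE 0.561, FDR 0.00618). The count fell to 1 without NTC IR-1 replicate 1 or NTC IR-2 replicate 3, to 2 without NTC IR-1 replicate 2 or NTC IR-2 replicate 1 or 2, and to 3 without NTC IR-1 replicate 3. The summed level of the 11 genes was 384, 403 and 409.8 CPM in NTC IR-1 and 329.5, 371 and 341 in NTC IR-2, or 87% of NTC IR-1. The more abundant hemocyte gene Pxn, chosen after its values were seen, at 139 to 150.3 CPM against 124 to 154, was not called. Of 33 antimicrobial and Bomanin peptides 6 were lower and 0 higher (median -0.41). The Bomanin BomS4 had 11.4, 9.57 and 8.94 CPM against 0.961, 1.49 and 2.02 (-2.72, SE 0.359, FDR 0.00168). The Daisho peptides Dso1 and Dso2, antifungal effectors of the Toll pathway, fell by 1.32 (SE 0.251, FDR 0.00629) and fell by 1.59 (SE 0.277, FDR 0.00466). These genes are short, and 3 of 33 peptides were called lower with the length trend removed, a share close to the 9.16% of all rows called lower in the fit without that correction. The count was also 3 when NTC IR-1 replicate 1 or 3, or NTC IR-2 replicate 2 or 3, was left out. Of 5 Turandot stress genes 0 were called in edgeR's test (1 at an unadjusted p below 0.05) and 1 in DESeq2.

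Digestive and detoxifying enzymes were mixed, with more calls lower than higher. Of 13 digestive enzymes that passed the filter on low counts, of 43 listed, 3 were called lower (Amy-d, Amy-p and Mal-A5) and 0 higher. The counts were the same with the length trend removed. Amy-d, an alpha-amylase, had 26.3, 26.1 and 19.1 CPM in NTC IR-1 and 0.652, 2.35 and 1.07 in NTC IR-2 (log2 fold change -4.14, SE 0.735, FDR 0.00499). Amy-d and its neighbour Amy-p are near-identical copies, so how their reads were divided is uncertain. Cyp4g1, which makes hydrocarbons in oenocytes, fell from 6.9, 3.96 and 4.05 CPM to 0.652, 0.183 and 0.376 (-3.63, SE 0.665, FDR 0.00547). Of 78 cytochrome P450 genes 20 were called lower and 3 higher (median -0.40), and 13 and 3 with the length trend removed. Cyp28d1 fell from 61.3, 59.6 and 88.9 CPM to 25.7, 35.1 and 28.7 (-1.23, SE 0.184, FDR 0.00244). Cyp6a8 was higher, with 4.82, 4.57 and 3.56 CPM against 14, 10.3 and 12 (1.49, SE 0.157, FDR 0.000686). The lower P450 count was 7 without NTC IR-1 replicate 1, 9 and 10 without replicates 2 and 3, 5 without NTC IR-2 replicate 2, 12 without replicate 3 and 11 with only the 6 libraries. Of 21 UDP-glycosyltransferases 6 were lower and 0 higher, among them Ugt49B1 with 22.6, 23.3 and 22.7 CPM against 9.19, 10.2 and 7.63 (-1.35, SE 0.263, FDR 0.00718). Their count was 4 with the length trend removed, 3 and 2 without NTC IR-1 replicates 1 and 2, and 2 without NTC IR-2 replicate 2. Of 31 glutathione S-transferases 2 were higher and 4 lower, and 2 and 1 with the trend removed. Odorant-binding proteins had no clear direction: 20 of 33 were above 0 (median 0.30), although 0 were called higher and 4 lower. Their summed level in NTC IR-2 was 84.6% of that in NTC IR-1. Without 1 library the median ran from 0.00 (without NTC IR-2 replicate 3) to 0.50 (without NTC IR-1 replicate 3). The count higher was 5 without NTC IR-1 replicate 3 or NTC IR-2 replicate 1. Obp99c, 1 of the 4 called lower, fell from 183, 171 and 259.8 CPM to 35.4, 62.7 and 55 (-2.0, SE 0.424, FDR 0.00967).

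The genes of the cytosolic ribosome moved in 1 direction. Of 89 ribosomal protein genes listed 84 passed the filter on low counts, and each of the 84 had a negative log2 fold change. Of these 73 were called lower and 0 higher, and the median was -0.77. Their summed level was 41514, 38093 and 40180 CPM in NTC IR-1 and 29133, 22680 and 19117 in NTC IR-2. RpS9, a small subunit protein, had 511, 471 and 480.1 CPM in NTC IR-1 and 241, 178 and 148 in NTC IR-2 (log2 fold change -1.37, SE 0.186, FDR 0.0017). The small subunit protein sta fell by 1.18 (SE 0.218, FDR 0.00558) and RpS21 fell by 1.20 (SE 0.191, FDR 0.00316). RpL3, at 958, 889.6 and 848 CPM against 606, 501 and 398, fell by 0.84 (FDR 0.00546) and RpS6 by 0.78 (FDR 0.00707). With the length trend removed 57 of 83 genes were lower and 0 higher, with a median of -0.58. The count was 52 with only the 6 libraries, 45 without NTC IR-2 replicate 2 and 48 without NTC IR-2 replicate 3. Of 44 translation factors 13 were lower and 4 higher (median -0.29). The elongation factor subunits eEF1beta and eEF1gamma, which recharge eEF1A with GTP, fell by 1.15 (SE 0.189, FDR 0.00356) and by 0.80 (SE 0.158, FDR 0.00743), and eIF2A fell by 0.77 (FDR 0.0026). The cap-binding repressor eIF4EHP rose instead, with 222, 246 and 282 CPM against 457, 429 and 478 (0.86, SE 0.135, FDR 0.00297). The lower count of translation factors was 9 with the trend removed, 5 to 7 without NTC IR-1 replicate 1 (6), NTC IR-1 replicate 2 (5), NTC IR-2 replicate 2 (7) or NTC IR-2 replicate 3 (6), and 7 with only the 6 libraries.

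Nuclear genes for mitochondria leaned to the same side, and less firmly. Of 73 mitochondrial ribosomal protein genes 20 were lower and 0 higher (median -0.28), and of 78 nuclear genes of oxidative phosphorylation 12 and 0 (median -0.24). With the length trend removed these counts were 7 lower and 1 higher (median -0.05) and 3 lower and 1 higher (median -0.05). The mitochondrial ribosomal protein mRpL34 fell by 1.14 (SE 0.223, FDR 0.00716). The cytochrome c oxidase subunit cype fell by 0.78 (SE 0.160, FDR 0.00844), and the complex I subunit ND-39 fell by 0.55 (SE 0.126, FDR 0.013). The oxidative phosphorylation count ranged from 3 without NTC IR-2 replicate 2 or 3 to 32 without NTC IR-2 replicate 1, with 4 and 5 without NTC IR-1 replicates 1 and 3. The mitochondrial ribosome count ranged from 5 without NTC IR-2 replicate 2 to 33 without NTC IR-2 replicate 1, with 6, 9 and 11 without NTC IR-1 replicate 1, NTC IR-1 replicate 2 and NTC IR-2 replicate 3.

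**Figure D4:**
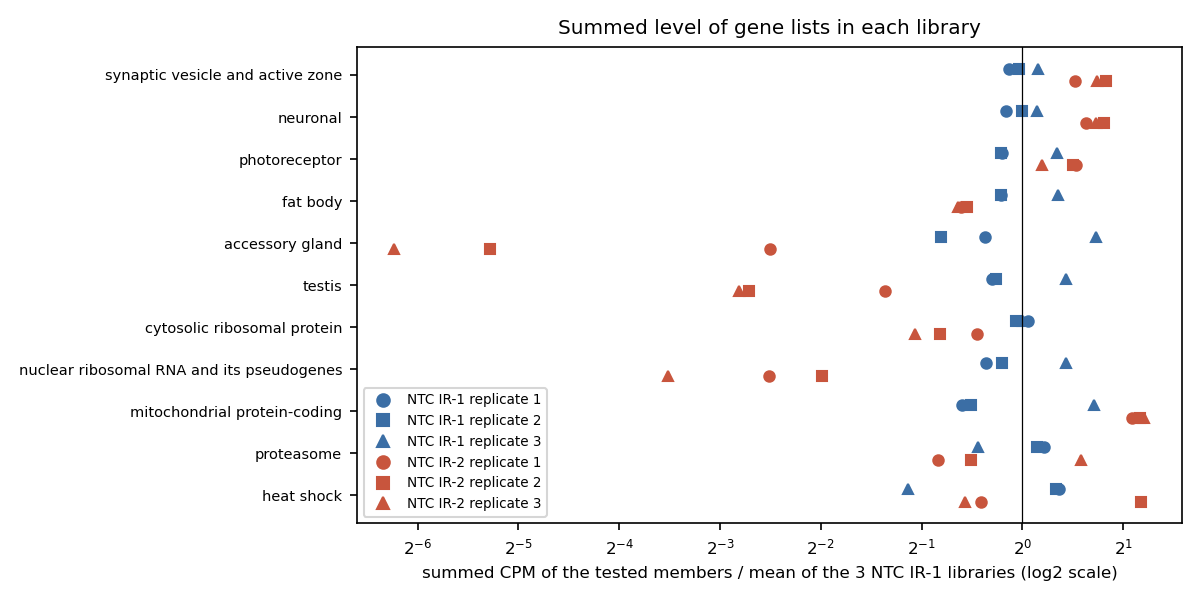
Summed CPM of the tested members of 11 gene lists in each library, divided by the mean of the 3 NTC IR-1 libraries (log2 scale), with NTC IR-1 in blue and NTC IR-2 in red. The lists of neurons, synapses, ribosomal proteins, ribosomal RNA and mitochondrial protein-coding genes separate the groups, while the summed proteasome and heat shock genes overlap between groups.

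Transcripts of the mitochondrial genome itself went the other way. The 13 mitochondrial protein-coding genes and the nuclear ribosomal RNA rows below were grouped by annotation after values were seen. Of the 13, 7 were higher in NTC IR-2 and 1 was lower, with a median of 1.02. Their summed level was 12349, 13175 and 30698 CPM in NTC IR-1 and 39843, 41932 and 43377 in NTC IR-2, so NTC IR-1 replicate 3 lay between its group and the other. The ATP synthase subunit gene mt:ATPase6 had 631, 604 and 1712 CPM in NTC IR-1 and 4263, 4475 and 4375 in NTC IR-2 (log2 fold change 2.15, SE 0.378, FDR 0.0047). The complex I gene mt:ND5 had 179, 279 and 399 CPM against 1097, 1655 and 1471 (2.30, SE 0.289, FDR 0.00153). Cytochrome b (mt:Cyt-b) changed by 1.45 (FDR 0.013) and lost its call without NTC IR-1 replicate 1 (0.0642) or 2 (0.064) and with only the 6 libraries (0.0703). The 1 gene called lower, mt:ATPase8 (3907 to 4068), shares only its last bases with mt:ATPase6 (4062 to 4736), where reads of both cannot be told apart. It overlapped between groups and lost its call without NTC IR-1 replicate 2 (0.118) or 3 (0.104), or without NTC IR-2 replicate 1 (0.0878) or 3 (0.123). The 2 mitochondrial ribosomal RNAs differed from each other. The small one, mt:srRNA, had 9.16, 37.3 and 33.3 CPM in NTC IR-1 and 260.0, 138 and 170.4 in NTC IR-2 (2.83, SE 0.560, FDR 0.00746), while the large one, mt:lrRNA, had 221322, 308406 and 325948 CPM against 376089, 199992 and 247869 (-0.05, FDR 0.899). The count higher was 3 without NTC IR-1 replicate 2 and 3 with only the 6 libraries.

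Nuclear ribosomal RNA and its pseudogenes were lower in NTC IR-2. Of the 136 such rows 20 passed the filter on low counts, and of these 14 were called lower and 0 higher, and all 20 had a negative log2 fold change. Rows low in NTC IR-2 could pass the filter through NTC IR-1, so the direction of these counts may be set in part by the filter and is given as a description. Their summed level was 3495, 3889 and 6044 CPM in NTC IR-1 and 784, 1125 and 391 in NTC IR-2. The 18SrRNA:CR41548 row, outside the rule for named genes and chosen after values were seen, had 218, 229 and 428 CPM against 37.1, 58.3 and 5.12 (-3.13, FDR 0.0209). The call of 18SrRNA:CR41548 was lost with only the 6 libraries (FDR 0.052). Libraries were made from mRNA with a kit that selects it, per the labels, and rows of ribosomal RNA are near-identical copies whose counts are uncertain. The count lower was 13 or 14 in each of the 6 fits without 1 library. How far RNA selection took part in the ribosomal, mitochondrial and length patterns was not tested.

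Most heat shock and proteasome genes were not called between the groups, and libraries of 1 group differed widely. Of 19 heat shock genes 1, Hsp67Ba, was called higher (0.62, SE 0.121, FDR 0.00707) and 0 lower. For 3 of the 19 the groups did not overlap, each higher in NTC IR-2, a share close to the 16.6% of all rows. The stress-induced Hsp70Aa had 253, 250.1 and 9.61 CPM in NTC IR-1 and 27, 313 and 22 in NTC IR-2 (-0.50, FDR 0.851). Its copy Hsp70Bb had 281, 257 and 30.3 CPM against 160.2, 284 and 107 (-0.04, FDR 0.98), and copies of Hsp70 are near-identical, so their counts are uncertain one by one. NTC IR-1 replicates 1 and 2 and NTC IR-2 replicate 2 were thus the high libraries of Hsp70Aa. Of 32 proteasome genes 0 were called in edgeR's test (1 at an unadjusted p below 0.05), with 0 also in DESeq2. Their summed level was 3296, 3132 and 2093 CPM in NTC IR-1 and 1585, 1995 and 4263 in NTC IR-2, and without NTC IR-2 replicate 3, the highest library, 10 were called lower. Of 17 genes of endoplasmic reticulum chaperones and of the unfolded protein response 0 were called in edgeR's test (3 at an unadjusted p below 0.05) and 0 in DESeq2, and without NTC IR-1 replicate 3 there were 2 higher.

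Apart from these classes, single genes set the groups apart. The largest rise was that of twy (FBgn0036206) (3L 11790212 to 11793283, minus strand, BDGP6.54), with 0.213, 0.425 and 0.208 CPM in NTC IR-1 and 76.4, 102 and 53.6 in NTC IR-2. Its level in the 6 knockdown libraries ran from 0.561 to 36.4 CPM. Cyp4p2, a cytochrome P450, had 1.73, 2.02 and 2.06 CPM against 35.8, 32.4 and 27.2 (log2 fold change 4.03, SE 0.276, FDR 2.58e-05). It lies on the strand opposite hig, a gene of the synaptic cleft, which had 427, 429 and 430.1 CPM against 561, 625 and 478. The change of hig, chosen after its values were seen, was 0.37 (FDR 0.0301), a call lost without NTC IR-1 replicate 1 (0.101) or 2 (0.0932) or NTC IR-2 replicate 2 (0.103). CG15824 rose from 0.586, 1.32 and 1.71 CPM to 41.8, 35.1 and 17.3 (4.68, SE 0.568, FDR 0.00151) opposite ninaA, whose groups overlapped at 120.2 to 199 and 137 to 217 CPM (ninaA, too, was chosen after its values were seen). How strand was treated in counting is not given in the sources used here, so reads of genes on opposite strands cannot be told apart. CG4291 (2L 851251 to 852730) overlaps no annotated gene and rose from 9.45, 10.6 and 8.94 CPM to 58.5, 47.8 and 34.5 (2.28, SE 0.199, FDR 0.000205).

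The hairpin targets of the other groups and the usual marker genes of fly stocks were also compared between the controls. D12 (dYEATS2) had 9.75, 9.45 and 7.94 CPM against 6.9, 8.6 and 7.73 (-0.22, FDR 0.279). The eye colour gene w had 42.2, 41.5 and 43.7 CPM against 36.3, 33.3 and 31.1 (-0.34, FDR 0.0583), with no overlap, and it passed the threshold without NTC IR-2 replicate 1 (FDR 0.0444). The body colour gene y changed by 0.02 (FDR 0.963), and the eye colour gene v, at 16.9, 19.6 and 23.3 CPM against 12.1, 10.5 and 5.5, by -1.10 (FDR 0.0904), not called although its groups did not overlap. The ear gene (dENL/AF9) had 32, 30.8 and 33.1 CPM against 35, 49.7 and 41.3 (0.39, FDR 0.0401), and its call was lost without NTC IR-1 replicate 1 (0.126) or 2 (0.127), or without NTC IR-2 replicate 2 (0.145) or 3 (0.075).

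By chromosome, chromosome 4, the smallest, stood apart from the large arms. Of 78 protein-coding genes tested on chromosome 4, 30 (38.5%) were called higher and 3 (3.85%) lower, with a median log2 fold change of 0.35. On the other arms 9.92% to 11.8% were higher, with medians of -0.07 to 0.00, the X chromosome at -0.02 among them. Genes of chromosome 4 are long and abundant here, with a median exon length of 4356 bases and a median level of 138 CPM. Their share called higher was close to that of the longest class of all protein-coding genes (38.2%) and of the highest class by level (40.7%). With the length trend removed 20 of the 78 genes of chromosome 4 were higher and 2 lower, with a median of 0.19. In the highest class by level 283 of 1047 were then higher, with a median of 0.16. CaMKII, described above, and Gat, which fell, both lie there. Of 639 noncoding RNA genes 3.91% were called higher and 5.16% lower, and their median level was 0.566 CPM, against 17.1 CPM for protein-coding genes. Among long noncoding RNAs, lncRNA:CR45102 had 21.9, 25.8 and 33.8 CPM against 82.6, 59.9 and 61.2 (1.32, SE 0.164, FDR 0.00151), and lncRNA:CRG rose by 0.83 (SE 0.129, FDR 0.00285).

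Transposable elements separated the groups by family, not as a class. Of 1194 insertions tested 92 were called higher and 66 lower (44 to 126 and 31 to 84 without 1 library), and they summed to between 3411 and 3722 CPM in NTC IR-1 libraries and between 3290 and 3649 in those of NTC IR-2. Insertions of a family share sequence, so their counts are not independent and single insertions are uncertain. Of 13 insertions of the LTR retrotransposon diver 10 passed the filter on low counts, and the 10 were called lower (median -1.69), with a summed 26.7, 25.8 and 27.7 CPM against 8.06, 7.02 and 8.76. Of 41 insertions of jockey, a LINE element, 19 were lower and 0 higher (median -0.96), at 74.2, 72.5 and 83.5 CPM against 46.4, 42 and 29.9. The LTR elements mdg1 and Stalker2 were higher. Of 26 mdg1 insertions 16 were higher and 0 lower (median 1.30), at 12.3, 15.1 and 12.8 CPM against 42.1, 32.4 and 25.1. Of 11 Stalker2 insertions 8 were higher and 0 lower, at 79.5, 97.6 and 153 CPM against 392, 254 and 203. Juan was higher too, with 6 of 10 insertions called higher and 0 lower, at 10.5, 11.6 and 14.7 CPM against 20.8, 25 and 25.4. The Juan count was 2 with the length trend removed and 1 with only the 6 libraries. For copia, the family with the highest summed level of those drawn, 0 of 33 were called in edgeR's test, with 0 at an unadjusted p below 0.05 and 0 in DESeq2. Once the length trend was removed 10 diver and 17 jockey insertions were lower and 12 mdg1 and 7 Stalker2 insertions higher. The jockey count was 3 without NTC IR-2 replicate 2 or 3, 4, 8 and 10 without NTC IR-1 replicates 1, 2 and 3, and 6 with only the 6 libraries. Without 1 library the diver count was 8 or 9. The mdg1 count was 10 without NTC IR-1 replicate 1, and the Stalker2 count was 5 without NTC IR-1 replicate 1 or 2.

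**Figure D5:**
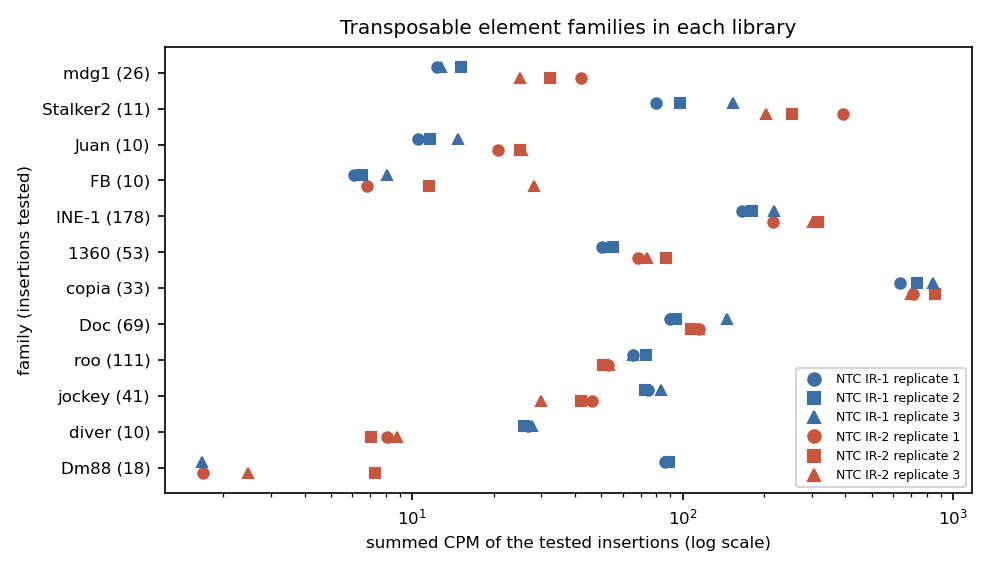
Summed CPM of the tested insertions of 12 transposable element families (log scale; insertions tested in parentheses) in each library of NTC IR-1 (blue) and NTC IR-2 (red). The groups lie apart for mdg1, Stalker2, jockey and diver, and for Dm88 only NTC IR-1 replicates 1 and 2 are high, at 86.3 and 88.9.

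Some single insertions, named by the size of their change, are described next. An insertion of a DNA transposon on the X chromosome had 2.34, 3.38 and 2.47 CPM in NTC IR-1 and 0, 0.0915 and 0.0198 in NTC IR-2 (log2 fold change -6.13, SE 0.603, FDR 0.0004). Another insertion of the same family, on 2L, went from 0.32, 0.383 and 0.229 CPM to 3.4, 5.67 and 2.51 (3.62, SE 0.378, FDR 0.000683). A HeT-A insertion on chromosome 4 rose from 0.107, 0.0425 and 0.187 CPM to 3.12, 1.07 and 1.46 (4.02, SE 0.677, FDR 0.00395). A ZAM insertion fell from 3.41, 3.68 and 3.41 CPM to 0.823, 0.458 and 0.158 (-2.91, SE 0.491, FDR 0.00396). Dm88 differed between libraries of 1 group: its 18 insertions summed to 86.3, 88.9 and 1.66 CPM in NTC IR-1 and to 1.68, 7.26 and 2.47 in NTC IR-2, and 2 were called lower. The count lower was 15 in the Wald test of DESeq2 and 0 in a fit with the replicate number as a block. Without NTC IR-1 replicate 3 there were 21 called of those then tested, and without any other library 0.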

How the data were processed

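Per the labels' protocols, RNA of male heads with an RNA integrity number above 7 was made into strand-specific mRNA libraries. The authors deposited raw counts for 23793 genes and transposable element insertions, and, as a second table, normalized counts, a signal equal to raw counts times 1 constant per library. That table was used only to compare library names. Per the submitters' processing notes, the tools included FastQC 0.12.0, Trim Galore 0.6.5, HISAT2, SAMtools, UMI-tools, Picard and DESeq2, with builds BDGP6 and dm6. The counting program and its use of strand are not given in the sources used here.

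Counts were analysed with edgeR 4.0.16 in R 4.3.3. Rows were kept by filterByExpr, libraries scaled by TMM, and all 12 libraries in 4 groups entered 1 quasi-likelihood fit with 8 residual degrees of freedom. The contrast was NTC IR-2 minus NTC IR-1, two-sided, with Benjamini-Hochberg adjustment over all 12661 rows and a threshold of 0.05. CPM use TMM-scaled totals, in which 3 counts are 0.0593 to 0.103 CPM, a floor that covers counting error only. Each standard error (SE) was taken as the fold change on the log2 scale over the root of its F statistic. Exon lengths and coordinates come from BDGP6.54 (Ensembl release 115), matched by symbol for 23535 rows. The length trend was removed per library by a loess fit (span 0.5). The fit was tested on simulated data.

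The members and the 52 gene lists were chosen with earlier results of these data known, and members of a list are not replicates. No set test was run. Named genes were the 10 largest rises and falls among called rows with at least 50 counts and no overlap, up to 3 called members per list by rise, fall and level, a fixed list of 26 genes, 5 called insertions and the 10 most abundant called rows in each direction. Genes outside this rule are marked as chosen after their values were seen. With 3 libraries a group an exact permutation test cannot go below 0.1, so none was used.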

Additional observations from a re-analysis of the deposited data

How the results depend on the processing

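The count of rows called stayed within 1.5 times that of the reported fit with the size factors of DESeq2 (2429), the Wald test of DESeq2 (3120), a mean count of at least 10, no mitochondrial genome (2397), no transposable element insertions (2311) and the length trend removed (1950). With no filter beyond 1 count the higher calls fell to 816. With only the 6 libraries there were 940 calls (330 higher and 610 lower). Leaving out 1 library gave 973 to 2977 calls, 455 to 1596 higher, 518 to 1430 lower and 407 to 922 called with at least a 2-fold change. The replicate numbers did not pair the samples: the deviations of same-numbered libraries correlated at -0.0191, 0.0189 and -0.0358 (3 pairs), and a fit with the replicate block called 1942 rows. Under the block mt:ATPase8 (FDR 0.0753), roX2 (0.0567) and ear (0.0693) were not called. No call took the opposite called sign under these alternatives. Of the named genes, 12 lost their call with only the 6 libraries, 6 with no filter, 4 with the length trend removed and 3 under the block, and the cause was not tested. The deepest libraries set the floor lowest, and changes of rows near 1 CPM are the least certain.

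With the group names of the normalized table the contrast is that of the libraries labelled dYEATS2-IR in the count table minus those labelled NTC IR-2 there. The same NTC IR-2 libraries thus stand on the other side of the contrast. A turn of sign can come from these shared libraries alone and is given as a description. It gave 1161 calls, 488 higher and 673 lower, and 379 called with at least a 2-fold change. Of the 2467 calls, 2283 had a fold change of the other sign, called or not. Among the 2467, 668 were called again with the other sign and 21 with the same sign. The log2 fold changes of named genes that turned positive were Yp2 0.91, Yp3 0.97, fit 2.57, to 0.45, Sfp60F 7.45, EbpII 6.59, CG42481 7.60, S-Lap2 7.63, Mst57Db 4.38, Mst84Da 5.51, Nplp2 1.16, Rh2 1.32, retinin 1.10, Hn 0.91, alrm 1.81, Gat 0.38, Lsp2 0.73, Gnmt 1.56, Tps1 0.80, NimC4 0.93, BomS4 1.34, Dso1 0.70, Dso2 0.52, Cyp4g1 1.91, Amy-d 1.53, Cyp28d1 0.58, Ugt49B1 0.45, Obp99c 0.75, RpL3 0.54, RpS6 0.45, RpS9 0.89, RpS21 0.60, sta 0.53, eEF1beta 0.76, eEF1gamma 0.44, eIF2A 0.57, mRpL34 0.47, ND-39 0.68, cype 0.39, w 6.80, 18SrRNA:CR41548 3.33, the X-linked DNA transposon insertion 6.35. Those that turned negative were twy -6.96, nSyb -0.41, nrv3 -0.81, fne -0.93, jeb -0.82, Snap25 -0.80, cpx -0.52, CaMKII -0.89, Cam -0.58, Rdl -0.87, nAChRalpha5 -0.75, Elk -0.52, sNPF -0.80, Dh44 -0.54, Proc -0.92, Hr38 -2.64, sr -0.88, Sik3 -0.28, sgg -0.41, norpA -0.08, rdgA -0.28, Eaat2 -0.06, Cyp4p2 -5.83, Cyp6a8 -0.98, eIF4EHP -0.88, mt:srRNA -3.38, mt:ATPase6 -1.69, mt:ND5 -2.22, mt:Cyt-b -1.32, Hsp67Ba -0.49, lncRNA:roX2 -0.53, ear -0.16, y -9.05, CG15824 -5.04, CG4291 -2.05, hig -0.09, the 2L insertion of that family -1.64, the HeT-A insertion -4.23, lncRNA:CR45102 -1.24, lncRNA:CRG -0.67. Which table names the libraries correctly was not tested.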

Other observations

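Of 12 circadian clock genes 3 were called higher (Pdp1, Sik3 and sgg) and 1 lower (jet). The kinase Sik3 rose by 0.87 (SE 0.142, FDR 0.00339 in edgeR's test) and the kinase sgg, which phosphorylates tim protein, by 0.68 (SE 0.0956, FDR 0.00185). Of the 8 clock genes not called, tim, vri, Clk and cry are described here, chosen after their values were seen. Timeless (tim), which peaks with per around dusk, had 396, 400.4 and 153 CPM in NTC IR-1 and 105, 444 and 168 in NTC IR-2. The transcription factor vri had 108, 107 and 33.1 CPM against 17.8, 96.6 and 57. Clk and cry are known to cycle in the opposite phase. Clk had 21.7, 26.5 and 62.9 CPM against 57.9, 32.6 and 54.6, and cry 46.6, 39.1 and 100.1 against 89.2, 79.8 and 61.3. None of the 4 was called between the groups (FDR 0.576 for tim, 0.498 for vri, 0.46 for Clk and 0.488 for cry in edgeR's test), but without NTC IR-1 replicate 3 Clk (FDR 0.0143) and cry (0.0103) were called higher. The libraries high in tim and vri and low in Clk were NTC IR-1 replicates 1 and 2 and NTC IR-2 replicate 2.

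The same 3 libraries were high in Hsp26 and Hsp68, which with Hsp83 were also chosen after their values were seen. Hsp26, a small heat shock protein, had 209.8, 194 and 7.65 CPM in NTC IR-1 and 17.2, 259 and 23.4 in NTC IR-2 (FDR 0.854). Hsp68 had 206, 211 and 12 CPM against 30.8, 410.4 and 28 (FDR 0.961). Hsp83, the fly Hsp90, differed from these, with 256, 260.5 and 376 CPM against 606, 2118 and 561 (log2 fold change 1.88, FDR 0.0528), no overlap between groups, and a call without NTC IR-2 replicate 1 or 3 (lowest FDR 0.0375). Dm88 insertions, in contrast, were high in NTC IR-1 replicates 1 and 2 and not in NTC IR-2 replicate 2. The labels give no time of day, temperature or date of collection, and their part in these levels was not tested.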
